A study of Mus musculus with 2 samples.

Results

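Open chromatin regions that were called in ethanol-treated mammary organoids, with no overlapping call in doxycycline-treated ones, are described here as EtOH-only peaks. They were chosen by their peak calls and counts: they lie on chromosomes 1 to 19, overlap no DOX peak by 1 bp or more and hold at least 100 counts in the EtOH library. In all, 42586 of 209971 EtOH peaks with at least 100 counts on these chromosomes met the rule (20.3%), out of 452907 peaks in both lists. A further 9320 EtOH peaks without a DOX overlap held fewer than 100 counts and were left out. Since the rule used the absence of a DOX peak, that absence is a description and was not tested. A region without a DOX peak has no deposited DOX count, which is not a count of 0.

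Single-cell ATAC-seq, in which a transposase cuts open chromatin inside single nuclei, had been carried out on primary organoids from C57BL/6J mice of the genotype shTRPS1.34 ki/+; CAG-rtTA3 tg/+. Both groups carry the inducible shRNA cassette, which sits in the Col1a1 locus, and the transactivator rtTA3 under the ubiquitous CAG promoter, a driver that did not induce the shRNA in every cell according to the study. The organoids received doxycycline at 0.1 µg/ml (DOX), which induces an shRNA against the GATA-type repressor gene Trps1, or ethanol (EtOH), for 7 days. Cells of several mice were mixed into 1 library per group, so nothing was tested against replicates, and the effects of doxycycline and of the shRNA cannot be told apart. The shRNA acts on RNA, which these files do not measure. The EtOH library held 3104 nuclei, 211963715 counts and a median of 66789.5 counts per nucleus, and the DOX library 3071 nuclei, 224762118 counts and a median of 75296. The 2 lists of nuclei shared 23 barcodes (0.741% of the EtOH barcodes). Intervals for shares of counts, for rates and for ratios used counts divided by 2. The reason is that a fragment has a pair of ends that usually count in 1 peak. Shares of peaks, such as those by position, class or motif, have intervals from the full number of peaks. The level is 95% throughout, and no error beyond that of counting is included.

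The mammary epithelium has an outer basal, myoepithelial layer and an inner luminal layer. Luminal progenitors, which give rise to the milk-producing alveolar cells, depend on factors such as ELF5 and carry the receptor KIT. Hormone-sensing luminal cells express the receptors for oestrogen (Esr1), progesterone (Pgr) and prolactin (Prlr), and the pioneer factor FOXA1 opens chromatin for the oestrogen receptor there. Distal regulatory regions differ more between such cell types than promoters do, and each factor tends to leave its own sequence motif in them.

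The central 200 bases of 7 EtOH-only peaks are shown because they stand for the kinds described next. The sequences are from the plus strand of the mouse build GRCm38 (the RefSeq assembly GRCm38.p6), and capitals mark matches to any of the 18 motifs searched. The first holds the highest count of all EtOH-only peaks, at the promoter of Opa3, which encodes a mitochondrial membrane protein. The next 2 had counts in hormone-sensing luminal-like nuclei alone, and the third of the 7, near Pcdh7, holds both forms of the FOX motif. Another pair are the highest-count peaks of the 2 longest runs of consecutive EtOH-only peaks, and the last 2 had most of their counts in luminal progenitor-like or in immune-like nuclei. Gene names give the nearest protein-coding TSS (transcription start site), which can be far away, and the Pcdh7 and Serpinb8 sequences were added after their motifs were seen.
Opa3 promoter, chr7:19228625-19228824: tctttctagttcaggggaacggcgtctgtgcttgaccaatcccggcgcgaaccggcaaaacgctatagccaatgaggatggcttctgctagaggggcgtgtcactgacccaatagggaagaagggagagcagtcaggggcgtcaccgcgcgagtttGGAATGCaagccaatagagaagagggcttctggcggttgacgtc
Cdh7 intergenic, chr1:109385847-109386046: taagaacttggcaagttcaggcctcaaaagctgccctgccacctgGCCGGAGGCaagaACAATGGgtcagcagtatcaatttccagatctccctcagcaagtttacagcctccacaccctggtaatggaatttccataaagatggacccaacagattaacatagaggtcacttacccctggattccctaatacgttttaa
Pcdh7 intergenic, chr5:59385034-59385233: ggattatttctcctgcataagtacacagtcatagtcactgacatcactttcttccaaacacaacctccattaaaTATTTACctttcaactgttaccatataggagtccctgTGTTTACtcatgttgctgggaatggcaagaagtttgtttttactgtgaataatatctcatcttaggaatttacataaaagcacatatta
Agbl1 intron, chr7:76655606-76655805: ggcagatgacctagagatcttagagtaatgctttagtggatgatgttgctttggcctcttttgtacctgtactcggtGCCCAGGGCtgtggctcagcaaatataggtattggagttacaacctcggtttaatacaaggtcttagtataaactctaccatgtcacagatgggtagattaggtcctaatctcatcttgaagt
Serpinb8 intergenic, chr1:108094362-108094561: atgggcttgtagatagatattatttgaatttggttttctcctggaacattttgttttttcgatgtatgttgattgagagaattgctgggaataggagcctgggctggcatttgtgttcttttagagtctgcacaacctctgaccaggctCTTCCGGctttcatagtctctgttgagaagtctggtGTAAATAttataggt
Fam92a intergenic, chr4:12466492-12466691: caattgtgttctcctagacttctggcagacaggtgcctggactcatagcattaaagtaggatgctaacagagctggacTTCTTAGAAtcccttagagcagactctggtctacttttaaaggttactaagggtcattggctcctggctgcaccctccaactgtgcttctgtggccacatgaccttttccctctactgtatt
Mbnl2 intergenic, chr14:120262851-120263050: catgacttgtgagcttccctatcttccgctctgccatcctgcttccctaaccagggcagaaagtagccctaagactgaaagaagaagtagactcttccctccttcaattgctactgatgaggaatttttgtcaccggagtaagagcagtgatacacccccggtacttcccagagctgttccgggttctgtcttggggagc

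The EtOH-only peaks were mostly weak and lay mostly away from promoters. Their counts ranged from 100 to 10147 with a median of 177 (quartiles 133 and 259), spread over a median of 86 nuclei, while shared EtOH peaks with at least 100 counts had a median of 522 (n = 167385). In all, 25111 EtOH-only peaks (59.0%) held under 200 counts and 486 held at least 1000. Together they held 10010856 counts, 4.72% of the EtOH library. No EtOH-only peak rested on a single nucleus, since the most productive nucleus supplied a median of 2.88% of the counts of a peak and none supplied over 25% (0 peaks). Just inside the threshold, 1609 peaks had 100 to 104 counts in a median of 50 nuclei, and just outside it 1343 had 95 to 99 counts in a median of 48. Their median width was 868 bp, against 885 bp in shared peaks. The share of EtOH peaks that were EtOH-only ran from 18.9% on chromosome 11 to 22.3% on chromosome 14.

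Introns held 48.4% of the EtOH-only peaks, intergenic sequence 37.9%, windows of 1 kb on either side of an annotated TSS, called promoters here, 9.64% and exons 3.99%. Among all shared peaks promoters took 19.1%. That difference shrank when shared peaks of the same count range were used (100 to 528 counts, n = 84399), where promoters took 10.5% (95% Clopper-Pearson interval 10.3 to 10.7), against 9.36 to 9.92 in EtOH-only peaks. The median distance to the nearest TSS was 11.2 kb in EtOH-only peaks, 10.7 kb in shared peaks of the same count range and 8.04 kb in all shared peaks. By position the EtOH-only peaks were closer to shared peaks of the same count range than to all shared peaks.

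The nearest DOX peak lay between 0 bp (16 peaks) and 959 kb away. The median gap was 2409 bp (quartiles 868 and 6192), 6102 peaks (14.3%) lay within 500 bp of a DOX peak and 6723 (15.8%) over 10 kb from one. Peaks close to a DOX peak had more counts. Of the 486 EtOH-only peaks with at least 1000 counts, 309 (63.6%) lay within 500 bp of a DOX peak, against 18.8% of those with at least 200 and under 1000 counts and 10.3% of those with fewer. These 309 had a median width of 665 bp, and 189 of them were promoters. At the other side of the rule, 89 EtOH peaks overlapped a DOX peak by only 1 to 10 bp, with a median of 294 counts, and 110 EtOH-only peaks missed one by 0 to 9 bp, with a median of 271.5. Peaks were called in each library alone, and the part of the placement of peak edges in the call of the 6102 close peaks was not tested.

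**Figure D1:**
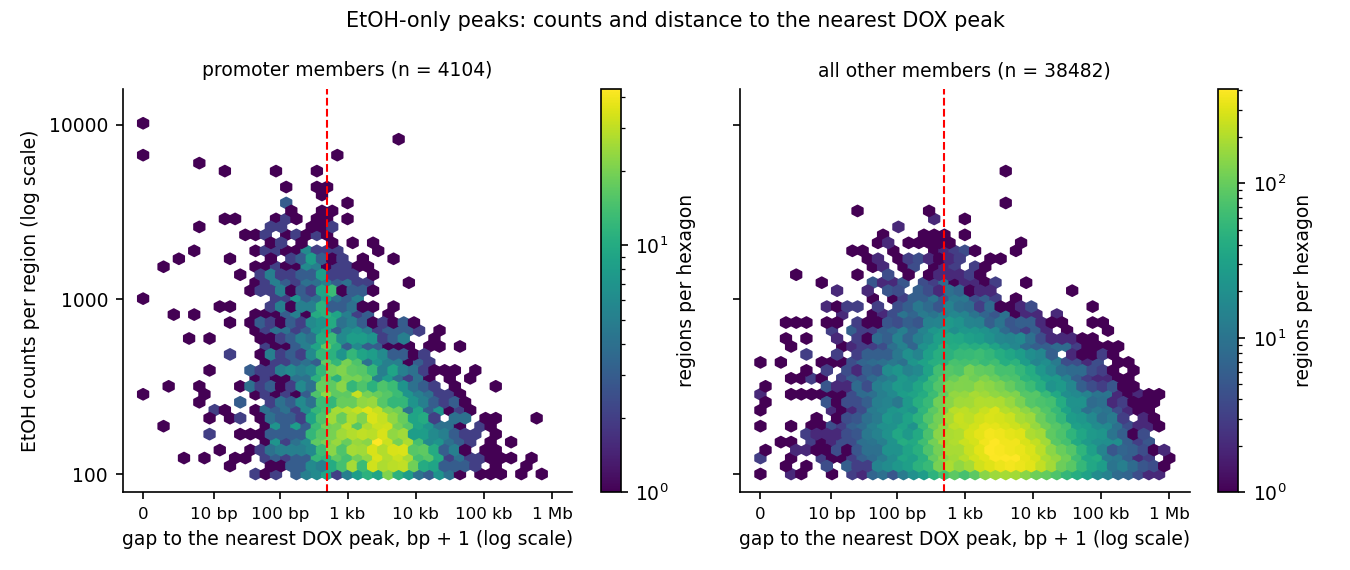
Each hexagon counts EtOH-only peaks by their gap to the nearest DOX peak (horizontal axis, base pairs plus 1, log scale) and their EtOH counts (vertical axis, log scale), for the 4104 promoters (left) and the 38482 other regions (right). The dashed line marks 500 bp, and most regions above 1000 counts sit to its left, while the quartiles of all regions are 133 and 259 counts and 868 and 6192 bp.

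The 5 EtOH-only peaks with the most counts were all promoters, and all 5 were open in every class of nuclei. The Opa3 promoter held 10147 counts in 2426 nuclei and adjoined a DOX peak directly (0 bp). The promoter of Maco1, which encodes a membrane protein, held 6579 counts and also adjoined a DOX peak (0 bp), and that of the zinc finger gene Zfp46, with 6081 counts, missed one by 5 bp. In Atp6v1a, which encodes a subunit of the proton pump of lysosomes, the promoter held 6615 counts at 798 bp from a DOX peak. The exception in distance was the promoter of Fam53c (chr18:34758927-34759705), with 7899 counts in 2082 nuclei at 5.68 kb from the nearest DOX peak. Its rate was 34.8 CPM (counts per 1000000 counts of the class) in the first hormone-sensing luminal-like cluster, 33.6 in the second, 39.7 in luminal progenitor-like and 38.4 in immune-like nuclei. The classes differed little there. In all, 77 promoter peaks with at least 1000 counts lay over 500 bp from a DOX peak.

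The counts were then assigned to classes of nuclei, found by clustering both libraries on regions with peaks in both, so that no EtOH-only peak took part. Of the EtOH nuclei, 1641 fell in a luminal progenitor-like cluster (57 DOX nuclei joined them), 500 and 512 in 2 hormone-sensing luminal-like clusters (with 105 and 6 DOX nuclei) and 283 in 2 immune-like clusters (with 1283). A cluster of 141 EtOH and 99 DOX nuclei stayed unnamed because basal and fibroblast markers were both raised in it, and the remaining 27 EtOH nuclei, with 1521 DOX nuclei, were left unnamed too. The clusters held mostly nuclei of 1 library, so that a cluster may be a library rather than a cell type. In the EtOH nuclei, 6 and 7 of 7 autosomal hormone-sensing markers were higher in the 2 hormone-sensing clusters than elsewhere, with Foxa1 at log2 differences of 1.26 and 0.83 and Esr1 at 1.09 and 0.92. In the luminal progenitor-like nuclei 6 of 8 markers were higher, led by the milk protein gene Csn3 (2.65) and Kit (2.12), but Ltf, which encodes lactoferrin, went the other way (-1.37). In the larger immune-like cluster, of 214 nuclei, 5 of 6 immune markers were higher, led by Tyrobp (4.87). In the unnamed cluster of 141 EtOH nuclei 7 of 8 basal and 5 of 6 fibroblast markers were higher. With the EtOH nuclei clustered alone, a cluster of 166 nuclei was named basal-like. Its median log2 differences were 0.76 for basal and 0.41 for fibroblast markers. Marker levels were summed over the regions with peaks in both libraries in and 2 kb before each gene.

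Hormone-sensing luminal-like nuclei supplied a larger share of the counts in EtOH-only than in shared peaks, and luminal progenitor-like and immune-like nuclei a smaller one. The 1012 hormone-sensing luminal-like nuclei, 32.6% of the EtOH nuclei, supplied 52.0% of the counts in EtOH-only peaks (95% Clopper-Pearson interval 51.9 to 52.0) but 36.5% of those in shared EtOH peaks. In shared peaks of the same count range they supplied 36.2%. The first of their clusters supplied 17.2% of the shared and 28.9% of the EtOH-only counts, and the second 19.4% and 23.1%. Luminal progenitor-like nuclei supplied 40.4% of the EtOH-only and 50.9% of the shared counts, and 43.5% in shared peaks of the same count range. Immune-like nuclei supplied 2.34% against 7.09%, and 13.2% in shared peaks of the same count range. The unnamed basal and fibroblast marker cluster supplied 5.10% against 5.20%. With only the peaks over 500 bp from a DOX peak, the hormone-sensing share was 52.8%.

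**Figure D2:**
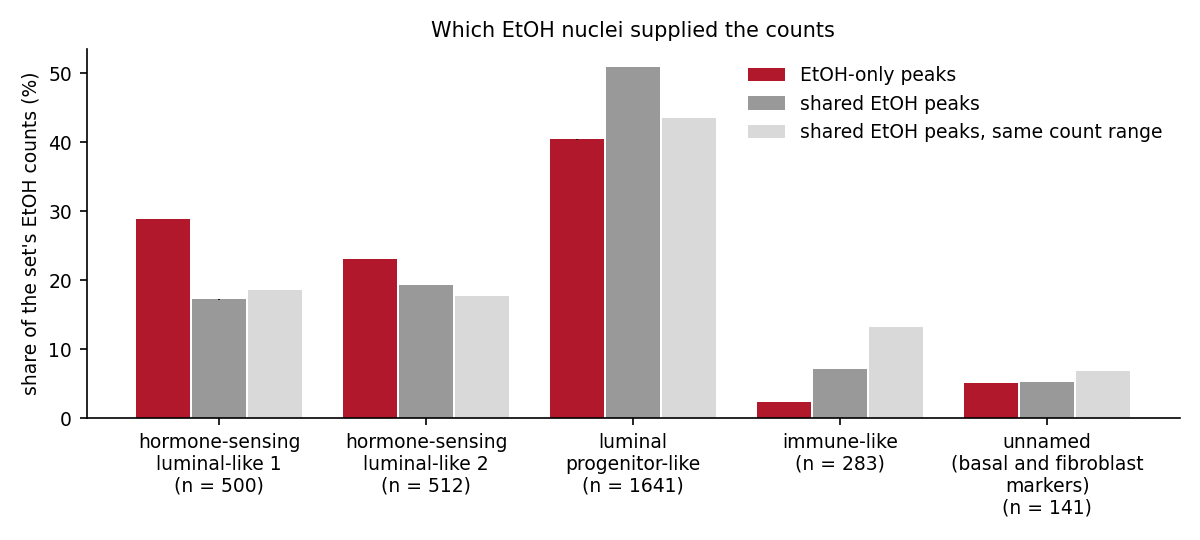
Bars give the share of a set's EtOH counts (percent) supplied by each class of EtOH nuclei, for EtOH-only peaks, all shared EtOH peaks and shared peaks of the same count range, with 95% Clopper-Pearson intervals that are smaller than the line width. The hormone-sensing luminal-like bars are higher for EtOH-only peaks (28.9% and 23.1%) and the luminal progenitor-like and immune-like bars lower (40.4% and 2.34%).

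The same order held nucleus by nucleus. In the first hormone-sensing cluster the median nucleus had 7.82% of its counts in EtOH-only peaks (quartiles 6.90 and 8.57). In the second the median was 5.75% (4.48 to 6.86), in the unnamed cluster 4.63% (4.20 to 4.90), in luminal progenitor-like nuclei 3.68% (3.29 to 4.15) and in immune-like nuclei 1.52% (1.33 to 1.65). The quartile ranges of the first hormone-sensing cluster, the luminal progenitor-like and the immune-like nuclei did not overlap. Depth moved little with these values: in the first hormone-sensing cluster the median was 7.77% in nuclei above the library's median depth and 7.86% in those below it, and in luminal progenitor-like nuclei 3.75% and 3.62%.

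Of the EtOH-only peaks 75.7% (32245) were higher in exactly 1 class, against 56.4% of the shared peaks. A peak was called higher in a class when its rate there was at least 2-fold that of all other EtOH nuclei. In the hormone-sensing luminal-like nuclei 19980 EtOH-only peaks were higher (46.9%), against 25.4% of all EtOH peaks with at least 100 counts and 20.8% of the shared peaks of the same count range. In the luminal progenitor-like nuclei 9801 were higher (23.0%), against 19.0% of all EtOH peaks. In the immune-like nuclei 510 were (1.20%), against 13.5%. In the unnamed basal and fibroblast marker cluster 5701 were (13.4%), near the 14.0% of all EtOH peaks but below the 19.5% of shared peaks of the same count range. Taken by cluster, 18695 were higher in the first hormone-sensing cluster (43.9%, background 22.9%) and 9057 in the second (21.3%, background 11.6%), and 7287 in both. No class was called for 8468 EtOH-only peaks (19.9%), against 37.4% of the shared peaks, and 1873 were higher in more than 1 class (4.40%, against 6.13%). At 4-fold the hormone-sensing share was 33.1% of the EtOH-only and 14.9% of all EtOH peaks. In the joint clustering 111 DOX nuclei were hormone-sensing luminal-like, against 1012 EtOH nuclei, and 57 against 1641 were luminal progenitor-like. These DOX numbers depend on the clustering. At a Leiden resolution of 1 a further hormone-sensing luminal-like cluster held 128 DOX and 2 EtOH nuclei. An unnamed cluster of the joint clustering held 1477 DOX and 7 EtOH nuclei. Its median log2 differences were 0.42 for basal, 0.36 for hormone-sensing and 0.18 for luminal progenitor markers. The part of these numbers of nuclei in the absence of DOX peaks was not tested.

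The larger share of hormone-sensing peaks was seen at each level of counts. Among EtOH peaks with 100 to 199 counts, 48.1% were EtOH-only, and among those at least 2-fold higher in hormone-sensing luminal-like nuclei 70.3% were. For peaks higher in luminal progenitor-like nuclei the share was 59.5%, for the unnamed cluster 39.9% and for immune-like nuclei 4.05%. At 200 to 399 counts the hormone-sensing share was 44.2% against 24.6% of all peaks, at 400 to 799 counts 16.7% against 7.90%, and at 800 counts and over 2.74% against 1.30%. Luminal progenitor-like peaks were at 28.9%, 7.43% and 1.26% in these bands, so that they lay above the value of all peaks up to 399 counts and just below it from 400 on.

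**Figure D3:**
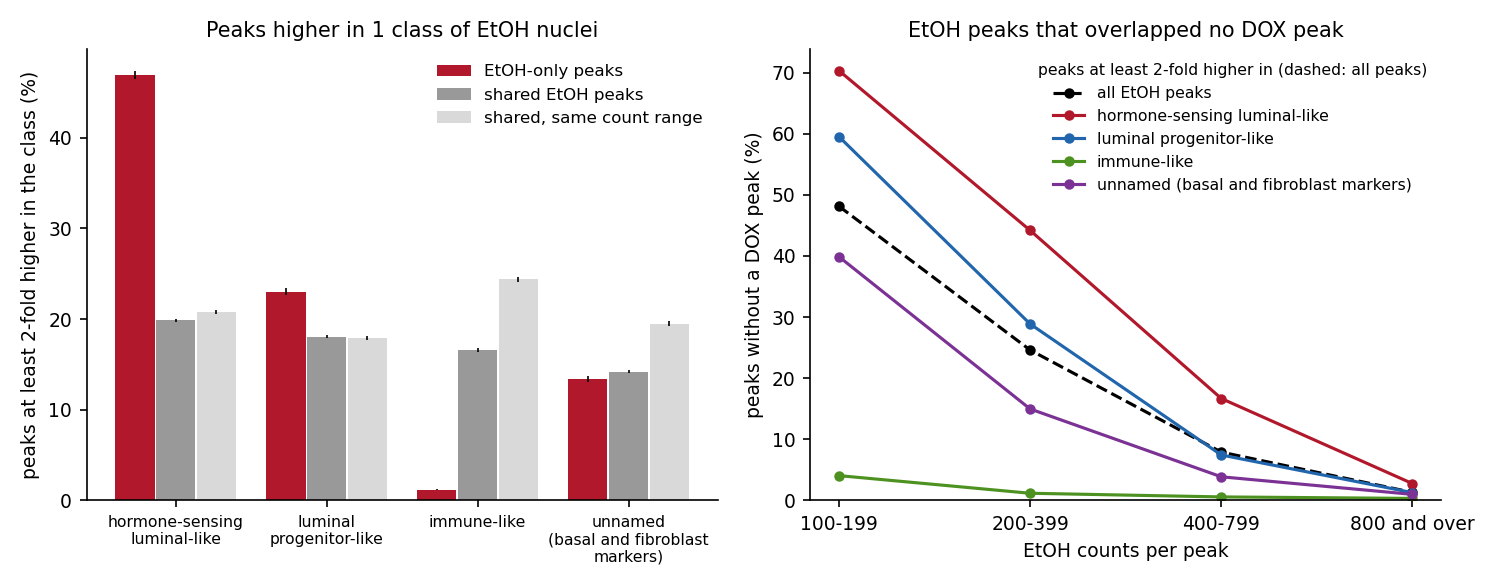
Left, the percent of peaks at least 2-fold higher in each class of EtOH nuclei than in the other EtOH nuclei, for EtOH-only peaks, shared peaks and shared peaks of the same count range with 95% Clopper-Pearson intervals, where the hormone-sensing bar reaches 46.9% for EtOH-only peaks. Right, the percent of EtOH peaks that overlapped no DOX peak by counts per peak, for all peaks (dashed, 48.1% to 1.30%) and for peaks higher in each class, where the hormone-sensing line lies above all others in every band.

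Distance from DOX peaks moved with class as well. EtOH-only peaks within 500 bp of a DOX peak were higher in hormone-sensing luminal-like nuclei in 43.9% of cases, those over 10 kb away in 50.9% and the 419 over 100 kb away in 69.9%. For luminal progenitor-like nuclei these shares were 20.8%, 27.6% and 18.9%. EtOH-only peaks that were higher in no class lay closer to a TSS (median 8.21 kb) than those of the hormone-sensing (11.8 kb) or the luminal progenitor-like class (13.5 kb), and 14.3% of them were promoters against 8.16% and 8.09%. The 510 immune-like peaks stood out in their gap, with 38.4% within 500 bp of a DOX peak.

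The 3 EtOH-only peaks named for hormone-sensing luminal-like nuclei, with at least 200 counts and the highest rate there relative to all other EtOH nuclei, were intergenic and far from the nearest protein-coding TSS. The first (chr1:109385486-109386408), 596 kb from the TSS of the cadherin gene Cdh7 and 618 kb from the nearest DOX peak, had 246 counts in the first hormone-sensing cluster, 18 in the second and 0 in every other class. Its rate was 6.53 CPM (95% exact Poisson interval 5.42 to 7.79) in the first cluster and 0.435 CPM (0.199 to 0.826) in the second. The lower 95% limit of its ratio to all other EtOH nuclei was 59.3, and the ratio at a floor of 3 counts over those nuclei was 148. The next, 1354 kb from Luzp2 (chr7:53481201-53482120), had 220 and 14 counts in the 2 clusters, and the third, 1663 kb from the protocadherin gene Pcdh7 (chr5:59384650-59385619), had 188 and 28. Both had 0 counts in every other class, with lower 95% limits of the ratio of 52.5 and 48.4 and ratios of 131 and 121 at the floor. In these 3 peaks the first hormone-sensing cluster was far above the second, and more generally 81.8% of the peaks called for the class had the higher rate in the first cluster, close to the 80.3% among shared peaks.

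The luminal progenitor-like class had its own intergenic peaks. The peak 97.4 kb from Mc2r, the gene of the corticotropin receptor, had 211 counts in luminal progenitor-like nuclei and 2 in all others. The peak 295 kb from Fam92a had 206 and 3, a ratio of 67.7 (15.5 to 952), and the peak 29.6 kb from the ubiquitin ligase gene Wwp1 had 215 and 6, a ratio of 35.3 (11.8 to 174). Their rates of 1.98, 1.93 and 2.01 CPM were lower than those of the hormone-sensing peaks with 1641 nuclei in the class. Among immune-like nuclei, the peak 12.7 kb before Mbnl2, the gene of a splicing regulator, had 213 of its 250 counts there, 14.6 CPM (12.0 to 17.7), which was 78.1-fold the rate elsewhere (47.4 to 136). The peak in an intron of the lymphoid factor gene Pou2f2 had 170 of 212 counts in immune-like nuclei but missed a DOX peak by only 25 bp. The peak 39.6 kb from Ccny had 251 of 337.

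Some EtOH-only peaks were consecutive. In 24524 cases (57.6%) an EtOH-only peak stood alone between shared peaks, and 193 runs held 5 or more consecutive EtOH peaks that were all EtOH-only, which is given as a description with no baseline. The longest run had 13 peaks over 385 kb in and around Agbl1, the gene of a tubulin-modifying carboxypeptidase (chr7:76409142-76794510), with 102 to 258 counts each. Hormone-sensing luminal-like nuclei supplied 90.0% of its counts and all 13 peaks were higher in that class. The second had 12 peaks over 372 kb near Serpinb8 (chr1:107723324-108094897), with 89.7% of counts from that class and 12 of 12 peaks called. The third had 11 peaks over 114 kb near Fam155a (chr8:9055028-9168547), with 83.8% of the counts and 10 of 11 peaks. Among all EtOH-only peaks that class supplied 52.0% of the counts, and 46.9% of the peaks were higher in it. In the 3 runs, 3, 1 and 4 peaks held a FOX motif.

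**Figure D4:**
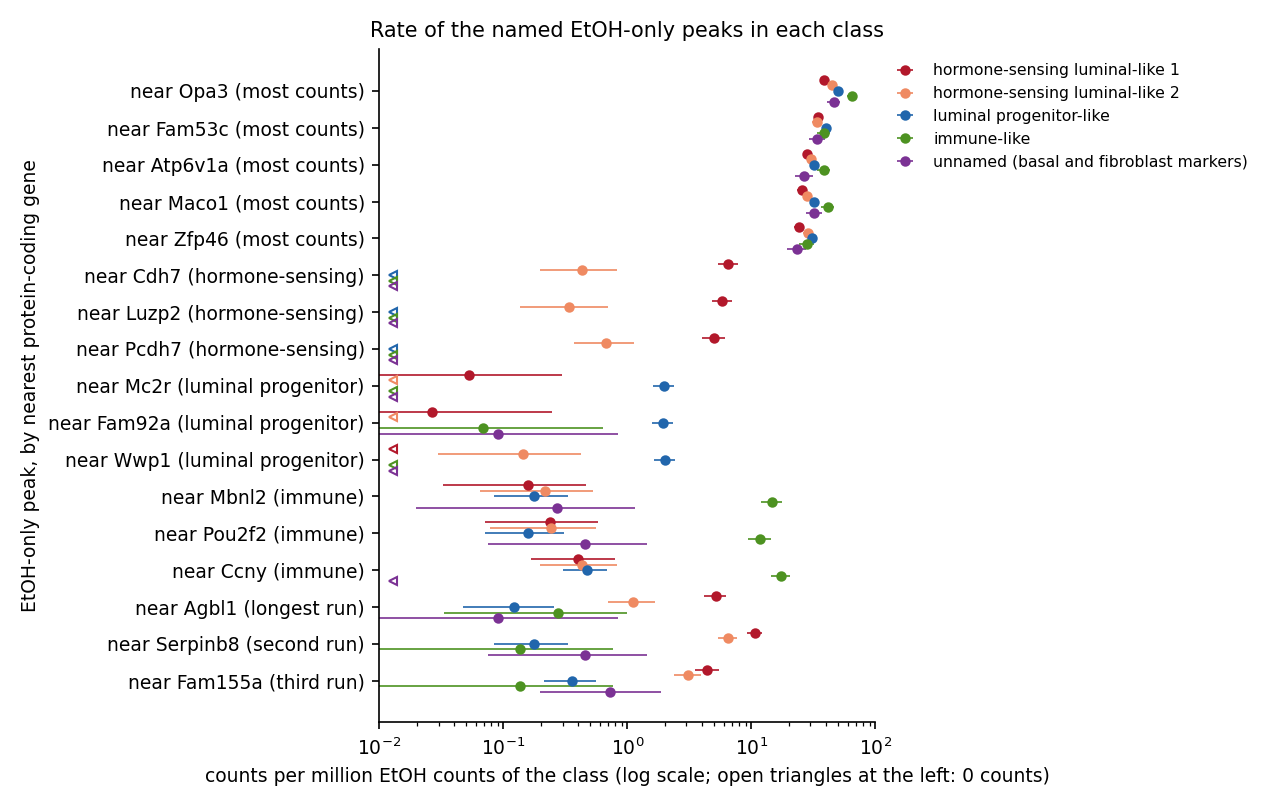
Points give the rate of each named EtOH-only peak in 5 classes of EtOH nuclei (horizontal axis, CPM, log scale) with 95% exact Poisson intervals, and open triangles at the left edge mark 0 counts. The 5 promoters with the most counts lie together in every class, between 23.2 and 64.5 CPM, while the others are high in 1 class or in both hormone-sensing clusters.

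Next, each EtOH-only peak was assigned to the protein-coding gene with the nearest TSS. In all, 11513 genes were nearest to at least 1, and 935 to at least 10. The genes with the most were Auts2 (64 of 205 EtOH peaks), Pde4d (54 of 191), Sox9 (46 of 172), Gata3 (44 of 126), Rbms3 (42 of 143), Efna5 (41 of 146), Adgrl2 (41 of 178), Med13l (38 of 145), Nckap5 (37 of 91) and Adgrl3 (37 of 112). Several are long genes, with many peaks of any kind, and their shares of 23.0% to 40.7% are a description, since the genes were chosen for their number of EtOH-only peaks. Sox9 and Gata3 encode transcription factors of the mammary epithelium. Both had 0 EtOH-only peaks inside the gene body, and the highest assigned to Gata3 lay 487 kb from its TSS. Of all EtOH-only peaks 46.9% were higher in hormone-sensing and 23.0% in luminal progenitor-like nuclei. Around Gata3, 21 of the 44 were higher in hormone-sensing and 16 in luminal progenitor-like nuclei, and around Sox9 24 and 11 of 46. The hormone-sensing counts at both genes were near the share of all EtOH-only peaks. Rbms3, which encodes an RNA-binding protein, had 27 hormone-sensing and 4 luminal progenitor-like peaks, and its highest, in an intron, was 23.7-fold higher in hormone-sensing nuclei (14.7 to 40.6). Auts2, linked to brain development, had 22 luminal progenitor-like and 19 hormone-sensing peaks. DOX-only peaks near the same genes were fewer in Auts2 (10) and Gata3 (7) and more numerous in Adgrl2 (45).

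Among 6607 genes with at least 10 EtOH peaks the median share of EtOH-only peaks was 20.0%, and 60 genes were over 50%. The highest shares were 10 of 12 at Pdia5, 8 of 10 at Speer2, 11 of 14 at Impg1, 18 of 23 at Fstl5, 10 of 13 at Zfp42, 8 of 11 at Zfp804a, 7 of 10 at BC030870, 12 of 18 at Grm7, 10 of 15 at Tpm3-rs7 and 8 of 12 at Sox1. The last 3 had the same share and were ordered by their number of EtOH-only peaks, and Sox1 was 1 of 2 genes with that share and that number. A higher rate in hormone-sensing luminal-like nuclei was called for 12 of 12 EtOH-only peaks at the glutamate receptor gene Grm7, 10 of 10 at Tpm3-rs7, 7 of 8 at Speer2, 9 of 11 at Impg1 and 13 of 18 at Fstl5. At Pdia5 and Zfp42 it was called for 5 of 10 each, near the 46.9% among all EtOH-only peaks. Sox1, a neural factor gene, differed, with 2 of 8. At Pdia5, which encodes a disulfide isomerase, a peak of 1462 counts within 1 kb of an annotated TSS, 737 bp from a DOX peak, had 22.3 and 11.4 CPM in the 2 hormone-sensing clusters and 1.26 CPM in luminal progenitor-like nuclei. That was 14.4-fold the rate outside the class (11.3 to 18.5).

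The 12 autosomal genes of the list of hormone receptors and luminal effectors had 456 EtOH peaks, of which 133 were EtOH-only (29.2%, against 20.3% of all), and 79 of the 133 were higher in hormone-sensing luminal-like nuclei (59.4%, against 46.9% of all EtOH-only peaks). Gata3 alone gave 44 of them, and inside gene bodies the share was 26.5%. This short list was written with earlier results known, and the study's own longer list of luminal mature genes had 19.7%, below the 20.3% of all. Esr1, the oestrogen receptor gene, had 19 of 48 peaks. Prlr had 13 of 45, Tfap2b and Tbx3, both transcription factor genes, 15 of 47 and 15 of 55, Areg, the oestrogen target amphiregulin, 8 of 27, Greb1, another oestrogen target, 5 of 23, Foxa1 4 of 18, Wnt4 and Tnfsf11, paracrine signals downstream of progesterone, 4 of 25 each, Pgr 2 of 10 and Ly6a 0 of 7. At Prlr 12 of 13, at Esr1 12 of 19 and at Areg 6 of 8 were higher in the hormone-sensing class. At Greb1 4 of 5, at Foxa1 4 of 4 and at Pgr 2 of 2 were. The other genes had fewer, with 8 of 15 at Tfap2b, 21 of 44 at Gata3 and 7 of 15 at Tbx3. Wnt4 had 2 of 4 and Tnfsf11 1 of 4. At Tnfsf11 3 of the 4 were higher in the unnamed basal and fibroblast marker cluster. As single regions, the highest assigned to Prlr (chr15:10010371-10011276) lay 166 kb before the gene and 18.4 kb from a DOX peak. It had 240 and 249 counts in the 2 hormone-sensing clusters, 8 in luminal progenitor-like and 5 in immune-like nuclei. That was 43.3-fold the rate outside the class (22.8 to 93.4). The highest at Esr1 (chr10:4663999-4665004) had 315 and 182 counts in the 2 clusters and 20 in luminal progenitor-like nuclei, 20.9-fold (13.2 to 34.8). The region 1.77 kb before Areg (chr5:91137404-91138248) had 221, 189 and 25, 21.5-fold (12.9 to 38.4). The region 4.89 kb before Foxa1 (chr12:57551441-57552180) had 159, 110 and 42, 9.04-fold (5.87 to 14.5). In these 4 regions both hormone-sensing clusters were above every other class.

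Luminal progenitor and milk genes had a share near that of all genes. Of 231 EtOH peaks at 15 genes, 46 were EtOH-only (19.9%), and 22 of these were higher in luminal progenitor-like nuclei (47.8%, against 23.0% of all EtOH-only peaks). In hormone-sensing nuclei 16 of the 46 were higher (34.8%, against 46.9%). At Kit 8 were luminal progenitor-like and 6 hormone-sensing, at Ehf 4 and 5, and at Aldh1a3 0 and 2. Kit, the receptor that marks progenitors, had 16 of 54, Ehf 9 of 41, Hey1, Aldh1a3 and Elf5 5 of 33, 5 of 25 and 4 of 27, Lcn2 3 of 4, Wap 2 of 4, and Ltf and Trf 1 of 8 each. Csn1s1, Csn2, Csn3, Cd14, Lalba and Sox10 had 0. The strongest was a region at Lcn2, the gene of the siderophore-binding lipocalin 2 (chr2:32383539-32384533), with 1965 counts in 671 nuclei at 1127 bp from a DOX peak. It had 16.2 CPM in luminal progenitor-like nuclei and 1.22 and 3.07 CPM in the hormone-sensing clusters, 7.33-fold the rate outside the class (6.03 to 8.97). The highest at Kit, 133 kb before the gene, had 443 of 489 counts in luminal progenitor-like nuclei, 9.50-fold (6.17 to 15.3). The promoter region of Elf5's relative Ehf was 2.81-fold (2.12 to 3.75), 508 bp from a DOX peak, and the highest at Elf5 2.34-fold (1.76 to 3.13).

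Of the other lists, the 12 basal genes had 75 EtOH-only of 342 peaks (21.9%), of which Sox9 gave 46. In the unnamed basal and fibroblast marker cluster 13 of the 75 were higher (17.3%, against 13.4% of all EtOH-only peaks). In hormone-sensing nuclei 35 were (46.7%, against 46.9%), and in luminal progenitor-like nuclei 16 (21.3%, against 23.0%). At Krt5, the keratin of basal cells, 4 of 10 were EtOH-only and all 4 were higher in the unnamed basal and fibroblast marker cluster. The region 4.58 kb before Krt5 had 284 of its 363 counts there, 25.7 CPM, 65.5-fold the rate elsewhere (45.7 to 95.7). Trp63 had 3 of 45, with 0 higher in the unnamed cluster, and Krt14 0 of 10. Snai2 had 5 of 11, all higher in hormone-sensing nuclei. Targets of SRF/MRTF and YAP, the actin-linked programme that the study follows, had 44 of 240 at 12 genes (18.3%), with Fhl2 (10 of 41), Tpm1 (9 of 36), Amotl2 (7 of 33), Ccn2 (6 of 36) and Ajuba (3 of 8) among them and Srf, Cnn2 and Ankrd1 at 0. Of these 44 peaks 14 were higher in hormone-sensing nuclei (31.8%, against 46.9% of all EtOH-only peaks). In luminal progenitor-like nuclei 12 were (27.3%, against 23.0%), and in the unnamed cluster 14 (31.8%, against 13.4%). The region 108 kb from Fhl2 with 2090 counts missed a DOX peak by 44 bp and was 5.10-fold higher in hormone-sensing nuclei (4.43 to 5.89). The 8 macrophage genes had 10 of 106 (9.43%) and 55 DOX-only peaks. Csf1r, the macrophage growth factor receptor gene, had 4 of 15, and the highest, with 802 of 927 counts in luminal progenitor-like and 11 in immune-like nuclei, lay 129 bp from a DOX peak. The study's own gene lists were made from other libraries. Its luminal mature genes had 1097 of 5569, of which 57.7% were hormone-sensing and 14.7% luminal progenitor-like. Its luminal progenitor genes had 842 of 4537 (18.6%), of which 35.0% were luminal progenitor-like and 34.6% hormone-sensing. Of all EtOH-only peaks 46.9% were hormone-sensing and 23.0% luminal progenitor-like. Trps1, the target of the shRNA, had 21 of 155 (13.5%) and 29 DOX-only peaks.

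In sequence, the EtOH-only peaks had a slightly lower GC content than other peaks. The median over the central 300 bp was 45.7% (quartiles 41.7 and 49.7), against 48.3% in all shared peaks, 46.3% in shared peaks of the same count range and 46.0% in DOX-only peaks. Hormone-sensing peaks had 44.3%, luminal progenitor-like ones 45.0%, peaks of no class 47.7% and those with at least 1000 counts 52.5%. Repeats masked in the assembly covered a median of 16.1% of a peak, and 16.0% in shared peaks of the same count range. The observed to expected ratio of CpG was 0.17 at the median, against 0.18.

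A set of 18 motifs was then searched on both strands of the central 300 bp. They were for FOX the letters TGTTTAC and their variant spelled TATTTAC, for GATA the letters AGATAA and their variant spelled TGATAA, and for AP-1 the letters TGANTCA. Those for TEAD were spelled ACATTCC with the variant form GCATTCC, those for ETS were spelled CCGGAAG with the variant form CAGGAAG, and those for PU.1 were GAGGAAGT. SOX was spelled ACAATGG with the variant form ACAAAGG, RUNX was spelled TGTGGTT, STAT was spelled TTCNNNGAA, GRHL was spelled AACNGGTT, TFAP2 was spelled GCCNNNGGC, TCF/LEF was spelled ATCAAAG and the E-box was spelled CAGCTG. Longer motifs for NFI, CTCF, PGR, the oestrogen response element and p53/p63 were searched too. Matches of different motifs may overlap, as those of ETS and PU.1 can, and a match is a stretch of letters rather than a bound site.

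FOX was the motif whose share was raised most among the common ones. It was found in 17.0% of the EtOH-only peaks (16.6 to 17.3), against 11.1% of all EtOH peaks, 9.80% of shared peaks of the same count range and 10.3% of those after weighting them to the GC content of the EtOH-only peaks. DOX-only peaks held it in 7.02%. It fell mostly into the hormone-sensing class, where 25.4% of the EtOH-only peaks held it, against 9.59% of the luminal progenitor-like ones and 11.2% of those of no class. The shared peaks that were higher in hormone-sensing nuclei held it in 19.4%. Read the other way, 70.3% of EtOH-only peaks with a FOX motif and 42.1% of those without were higher in hormone-sensing luminal-like nuclei. The Pcdh7 sequence above holds 2 such matches. Forkhead factors such as FOXA1 bind this motif, but which factor, if any, was bound is not measured here.

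Several other motifs were found less often than in shared peaks of the same count range. CTCF was found in 0.336% of the EtOH-only peaks (0.283 to 0.395), against 2.95% of all EtOH peaks and 2.48% of shared peaks of the same count range at the same GC content. CTCF sites are open in most cell types. PU.1, the motif of a myeloid factor, was in 2.16% against 5.30%, RUNX in 9.44% against 12.6% and ETS in 16.4% against 18.3%, all against shared peaks of the same count range at the same GC content. GATA, whose letters TRPS1 also binds, was in 22.4% against 25.9% of that set. In all shared peaks at the same GC content it was in 24.3%, also above the EtOH-only peaks. Without weighting for GC content, all EtOH peaks held it in 20.8%, below the EtOH-only peaks. AP-1 was in 22.3% against 21.6%, SOX in 14.1% against 13.8% and TEAD in 11.2% against 11.6%, which were nearly level.

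By class the shares of AP-1, GATA, SOX and ETS differed more than these averages, while TEAD was in 10.8% of both. AP-1 was in 32.4% of the hormone-sensing and 9.24% of the luminal progenitor-like EtOH-only peaks, and GATA in 28.6% and 15.1%. SOX went the other way, with 11.4% and 21.9%, and so did ETS, with 13.5% and 20.4%. In shared peaks the same classes had AP-1 in 41.6% and 12.0% and SOX in 11.6% and 23.7%, with the same order of the classes. The peaks of the unnamed basal and fibroblast marker cluster held TEAD in 15.1% and p53/p63 motifs in 4.96%, against 11.2% and 3.43% of all EtOH-only peaks. The oestrogen response element was found in 22 EtOH-only peaks in all, 21 of which were higher in hormone-sensing nuclei. It was in 42 of 167385 shared peaks, 27 of which were higher in these nuclei.

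**Figure D5:**
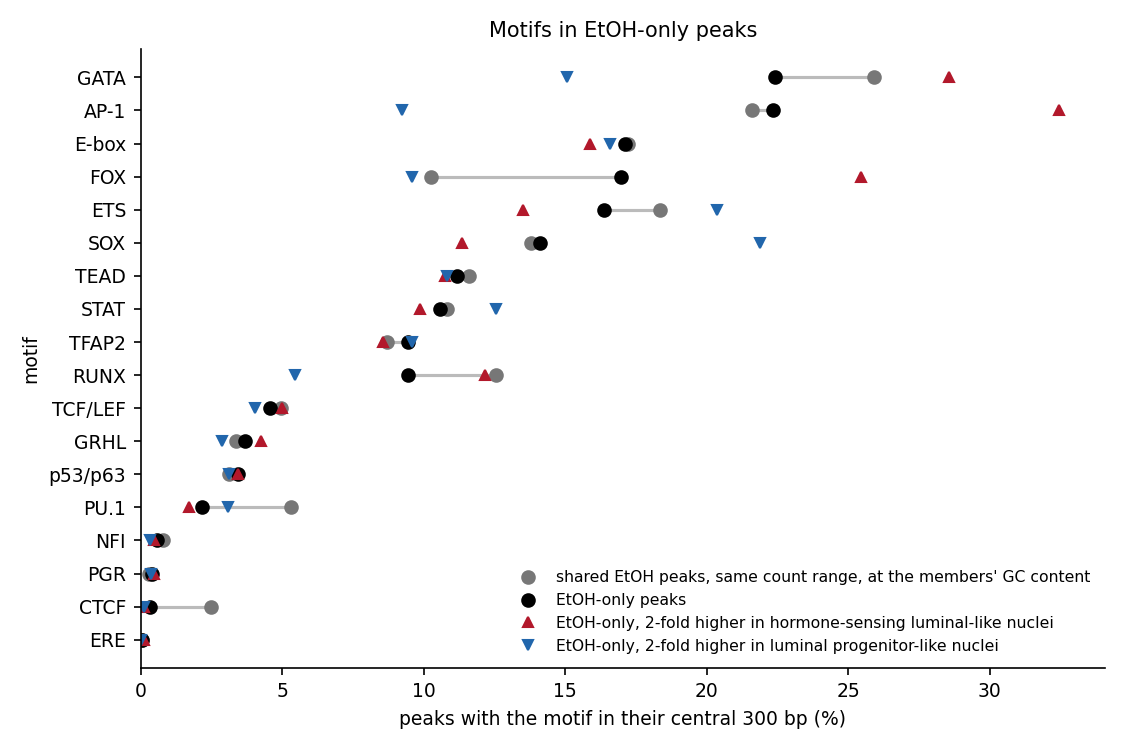
Points give the percent of peaks with each of 18 motifs in the central 300 bp: EtOH-only peaks (black), shared peaks of the same count range weighted to their GC content (grey), and EtOH-only peaks at least 2-fold higher in hormone-sensing (red) or luminal progenitor-like nuclei (blue). FOX lies right of its grey point (17.0% against 10.3%) and CTCF left of it (0.336% against 2.48%), and AP-1 and SOX differ in opposite directions between the 2 classes.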

How the data were processed

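Per-library matrices had been deposited by the authors, holding counts of transposition events per peak and nucleus with no normalization, and peak lists in base pairs. The headers name the program Cell Ranger ATAC at version 2.0.0, whereas the study's methods name an earlier one. Peaks were called in each library alone, and the processing notes name the build mm10. The 2 barcode lists and all deposited nuclei were used, and no doublets were removed.

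EtOH peaks were compared with DOX peaks (overlap of 1 bp, minimum of 100 counts) and placed against GENCODE M21 on GRCm38. Nuclei of both libraries were clustered on shared regions by TF-IDF, singular value decomposition (components 2 to 30), 15 neighbours and Leiden at a resolution of 0.5 (scikit-learn 1.9.0, igraph 0.11.9, leidenalg 0.10.2, seed 1). A cluster was named when the median log2 difference of a marker list was at least 0.25 and led the next by 0.15. Rates are CPM of a class over all EtOH peaks. Shares carry Clopper-Pearson, rates exact Poisson and ratios exact conditional binomial intervals. Motifs were weighted over GC bins of 5 points. The alternatives tried were another minimum, TSS set, motif window, clustering, fold and gap, with effects given in the closing section. Calls at 2-fold were run on simulated counts with no planted difference or with planted ones well above 2-fold. Differences near 2-fold and spread between nuclei were not simulated. Python 3.11.15, numpy 2.4.6, scipy 1.17.1, pandas 2.3.3 and matplotlib 3.10.9 were used.

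Named regions were the 5 peaks of most counts, the 3 of at least 200 counts with the highest rate over other nuclei in each named class, the 3 longest runs, and, by gene, the 10 genes with the most EtOH-only peaks, the 10 of highest share among those with at least 10 peaks, and the genes of 5 hand-written lists. The members and lists were chosen with earlier results of these data known. A legend of the study names wild-type mice, and its methods and design text give different numbers of mice. The labels were followed.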

Additional observations from a re-analysis of the deposited data

How the results depend on the processing

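No paired analysis was possible because the design holds 1 library per group, and leaving out a library leaves no comparison. Of 64 alternative values 27 stayed within the counting interval or 1.5 times the count, 37 moved and 0 reversed. With a minimum of 200 counts there were 17475 EtOH-only peaks, promoters made up 12.8%, the median GC content was 46.3%, FOX was in 19.0%, GATA in 20.0%, AP-1 in 23.3% and CTCF in 0.229%, and hormone-sensing luminal-like, luminal progenitor-like and immune-like nuclei supplied 54.2%, 39.0% and 2.23% of the counts. Leaving out peaks within 500 bp of a DOX peak, a choice made after seeing the data except for position, gave 8.64% promoters, FOX in 17.4%, AP-1 in 23.0%, and shares of 52.8%, 39.8% and 2.09%. Of the peaks that stayed, 314 were higher in immune-like nuclei (0.861%, against 13.5% of all EtOH peaks). Promoters by protein-coding TSS alone were 6.43%, and the GC content of whole peaks was 44.5%. In the central 600 bp FOX was in 26.04%, GATA in 43.1%, AP-1 in 31.03% and CTCF in 0.437%. Shared peaks of the same count range had 18.2%, 46.4%, 29.6% and 2.59% in that window. With the minimum of 200 counts such shared peaks had FOX in 10.3%, GATA in 23.9%, AP-1 in 21.7% and CTCF in 2.76%. Clustering EtOH nuclei alone gave shares of 50.8%, 35.5% and 2.68%, and counting each nucleus once per peak gave 50.6%, 41.5% and 2.62%. Without the 5% of nuclei of highest doublet score the luminal progenitor-like and immune-like shares were 40.3% and 2.29%, and at a Leiden resolution of 1 the luminal progenitor-like share was 34.1%. At that resolution the luminal progenitor-like cluster held 1043 EtOH nuclei. An unnamed cluster with a median of 29394 counts held 596. With EtOH nuclei clustered alone, 1101 were luminal progenitor-like and an unnamed cluster with a median of 27769 counts held 556. At 4-fold, 4361 peaks were higher in luminal progenitor-like nuclei (10.2%, against 7.78% of all EtOH peaks) and 110 in immune-like nuclei (0.258% against 9.25%). With peaks inside gene bodies only, 349 genes had at least 10 EtOH-only peaks, and, as a choice made after seeing the data, the luminal progenitor and milk list had 14.8% and the basal list 16.3% EtOH-only peaks. The ratio of the EtOH-only to the shared share stayed between 1.39 and 1.48 for hormone-sensing luminal-like, 0.76 and 0.81 for luminal progenitor-like and 0.29 and 0.38 for immune-like nuclei. The cause of these shifts was not tested. With 1 library per group no replicate error is known, and weak peaks near the minimum are those most limited by depth.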

Other observations

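The EtOH-only peaks had a counterpart of 38755 DOX-only peaks with at least 100 counts, of 206072 DOX peaks on the same chromosomes. Those lay a median of 1841 bp from the nearest EtOH peak, against 2409 bp for EtOH-only peaks from DOX peaks, and their highest count was 21819. The motifs differed in both directions: GATA was in 29.8% of the DOX-only and 22.4% of the EtOH-only peaks, PU.1 in 11.1% and 2.16%, and FOX in 7.02% and 17.0%. The DOX library held 1283 immune-like nuclei against 283 in EtOH, and the part of this in the motif shares was not tested.

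In 42356 of 42586 EtOH-only peaks both hormone-sensing luminal-like clusters had counts. Immune-like nuclei had 0 counts in 10081 EtOH-only peaks (23.7%), luminal progenitor-like nuclei in 31 and hormone-sensing luminal-like nuclei in 4.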
